A study of Mus musculus with 6 samples.

Results

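The genes described here encode subunits of potassium, sodium and HCN channels, and their levels were compared between hippocampi of mice that lost the lysine acetyltransferase CBP in adult forebrain excitatory neurons (CBP-ifKO) and those of Control mice. The members are a list of 51 channel genes chosen by name, with earlier results of these data known, of 55471 genes in the count table. All 51 were found there and had enough reads to be tested. They fall into 16 classes by channel family, with 35 pore-forming potassium channel subunits, 7 pore-forming sodium or HCN subunits and 9 auxiliary subunits. Total RNA of the hippocampus was sequenced in 3 Control and 3 CBP-ifKO libraries. All mice were C57BL/6 by the labels (C57BL/6J in the methods), 3 to 6 months old, and received tamoxifen in corn oil (20 mg/mL) by 5 intragastric administrations, one every other day. CBP-ifKO mice carried floxed Crebbp alleles and the Camk2a-creERT2 driver, in which the Camk2a promoter gives a tamoxifen-inducible Cre to excitatory neurons of the forebrain. Interneurons, glia and vessels, in which that promoter is largely silent, share the sample, and recombined neurons can still make a truncated CBP. Control mice were tamoxifen-treated littermates that lack the driver according to the treatment protocol, although one descriptive field of the labels names the driver for Control too. The methods describe pools of hippocampi from 3 female mice per library for one of the experiments with this genotype, and the labels do not say which experiment these libraries belong to.

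Voltage-gated potassium channels open on depolarisation and repolarise the neuron, so they set the width of the action potential, the spacing of spikes and how far a dendritic signal spreads. Inward rectifiers and tandem pore domain (K2P) channels hold the resting potential, KCNQ channels carry the M-current that restrains repetitive firing, and calcium-activated channels shape the afterhyperpolarisation. Sodium channels start and carry the action potential, HCN channels pass an inward current at negative potentials, and auxiliary subunits change how many pores reach the membrane and how fast they gate. In hippocampal pyramidal neurons, Kv4 pores with KChIP and DPP partners carry the A-type current of the dendrites.

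The libraries held between 10199008 and 14950257 counts. Crebbp was at 191 ± 30.1 CPM (counts scaled to the same library size with TMM factors; SD, n = 3) in Control and at 98.4 ± 10.8 CPM in CBP-ifKO, and Esr1, part of whose sequence is in the creERT2 transgene, rose from 6.07 ± 0.36 to 66.7 ± 2.91 CPM. All 3 Control libraries were between 5.65 and 6.29 CPM for Esr1, so none of them had the Esr1 level of the driver-positive libraries. Ep300, the paralog of Crebbp, was at 101 ± 17.5 and 114 ± 7.80 CPM (log2 fold change 0.18, edgeR adjusted p = 0.321). Over the 17981 genes tested, 897 were called lower and 252 higher in CBP-ifKO by edgeR's quasi-likelihood test at an adjusted p under 0.05, with a median log2 fold change of -0.003. The share of calls that were lower was 78.1%, against 56.5% with library totals as the only scaling, 64.3% with offsets for GC content and length, and 60.6% with those offsets and a replicate block.

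A share of the channel genes was lower in CBP-ifKO, and most of the others had negative fold changes without a call. Of the 51 members 17 were called lower and 0 higher by edgeR, or 33.3% against the 4.99% of all genes tested that were called lower and the 1.4% called higher. As the list was chosen with earlier results of these data known, this share describes the list only. Of 48 further channel and accessory genes tested 7 were called lower. Of the 6 members with a positive fold change 1 had an unadjusted p under 0.05, and limma-voom and DESeq2 also called 0 higher. Among the 49 members with a mean of at least 10 CPM the 17 calls were 34.7%, against 7.46% of the 10096 genes of that level. The fold change was negative for 45 members and positive for 6, where 9113 of all 17981 genes (50.7%) were negative. With library totals as the only scaling 41 members were negative. Members had a median log2 fold change of -0.20 (range -0.86 to 0.25) beside -0.003 over all genes, a shift of small size that many channels shared. All 3 CBP-ifKO libraries lay below all 3 Control libraries for 25 members (49.0%, against 13.9% of all genes tested) and above them for 1 member, Scn1a (against 11.8%). In bulk tissue, fewer cells of a type and less RNA per cell cannot be told apart.

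**Figure D1:**
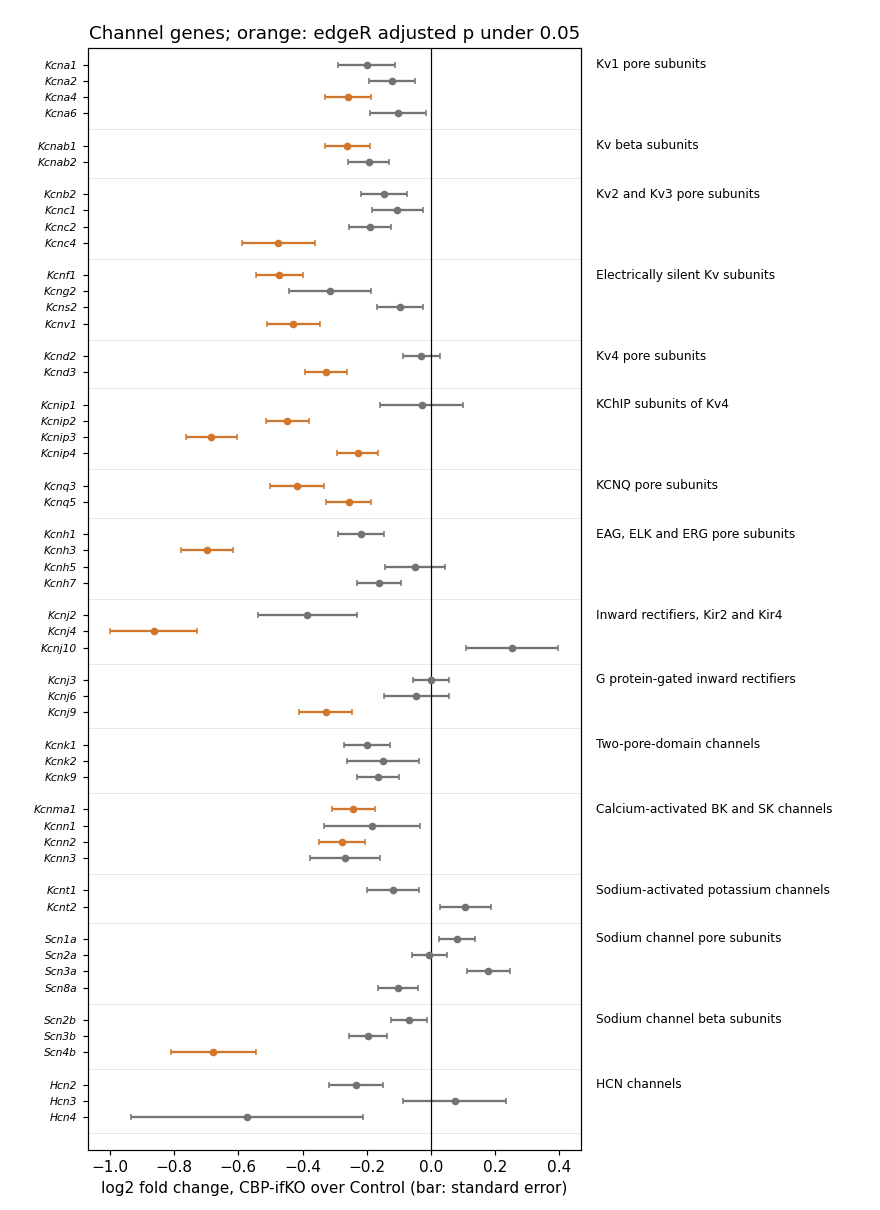
Log2 fold change of CBP-ifKO over Control (x axis; bars are standard errors) for the 51 channel genes by class, with edgeR calls in orange. The 17 called genes all lie left of 0, from Kcnj4 at -0.86 to Kcnip4 at -0.23, and the sodium channel pore genes lie close to 0.

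Pore-forming and auxiliary genes were both among the calls. Of 35 potassium channel pore genes 12 (34.3%) were called lower, with a median log2 fold change of -0.20. Of 9 auxiliary genes 5 (55.6%) were called lower, with a median of -0.23. Over all genes tested 4.99% were called lower and 1.4% higher. Of 7 sodium channel and HCN pore genes 0 were called in either direction by edgeR (2 at an unadjusted p under 0.05), and 0 by limma-voom or DESeq2. Calls survived other processing unevenly. Kcnip3, Kcnh3, Kcnj4, Scn4b, Kcnip2, Kcnf1 and Kcnd3 were called lower in all 16 alternative fits. In GRCm38 these 7 genes lie at chr2:127456498-127522094, chr15:99224861-99242817, chr15:79483714-79505241, chr9:45138395-45154152, chr19:45791839-45816061, chr12:17172100-17176888 and chr3:105452330-105674002, in the order named. The other 10 called members lost the call in at least 1 fit, and losses on leaving out a library are given with each gene. Leaving out Control replicate 3 gave 10 members called lower, leaving out CBP-ifKO replicate 2 gave 11, and leaving out CBP-ifKO replicate 3 gave 7. The share of all genes tested that were called lower fell as well, to 2.51%, 2.27% and 2.45% in that order. With library totals as the only scaling 11 members and 3.71% of all genes tested were called lower. Kcna4, Kcnip4, Kcnq5 and Kcnma1 lost the call there and also with upper-quartile factors. Kcnab1 and Kcnn2 lost it with library totals but not with upper-quartile factors.

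Markers of some neuron types moved with these genes. Of 7 CA1 pyramidal markers (Wfs1, Fibcd1, Pou3f1 and others) 5 were called lower and their summed level ranged from 594 to 615 CPM in Control and from 432 to 460 CPM in CBP-ifKO. Of 5 CA2 markers 1 was lower (127 to 145 against 83.9 to 96.1 CPM). This was Rgs14, at 74.3 ± 9.59 and 31.2 ± 1.39 CPM, and the other 4 were not called, with a list median log2 fold change of -0.03. Of 7 CA3 markers 2 were lower and 1 higher (909 to 932 against 904 to 977 CPM). The higher one was Chgb, at 512 ± 34.2 and 611 ± 24.1 CPM, while the other 6 had negative fold changes (list median -0.17). Of 7 dentate granule markers 3 were lower and 1 higher (415 to 449 against 394 to 438 CPM). Of 8 interneuron markers 2 were lower (741 to 756 against 674 to 718 CPM), and all 4 oligodendrocyte precursor markers were lower (180 to 196 against 142 to 148 CPM). Of the 8 astrocyte, 8 microglia and 8 oligodendrocyte markers 0 were called in either direction by edgeR, limma-voom or DESeq2 (1, 2 and 2 at an unadjusted edgeR p under 0.05). No marker in these lists was at 0 in both groups. The part of cell type composition in the channel result was not tested.

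**Figure D2:**
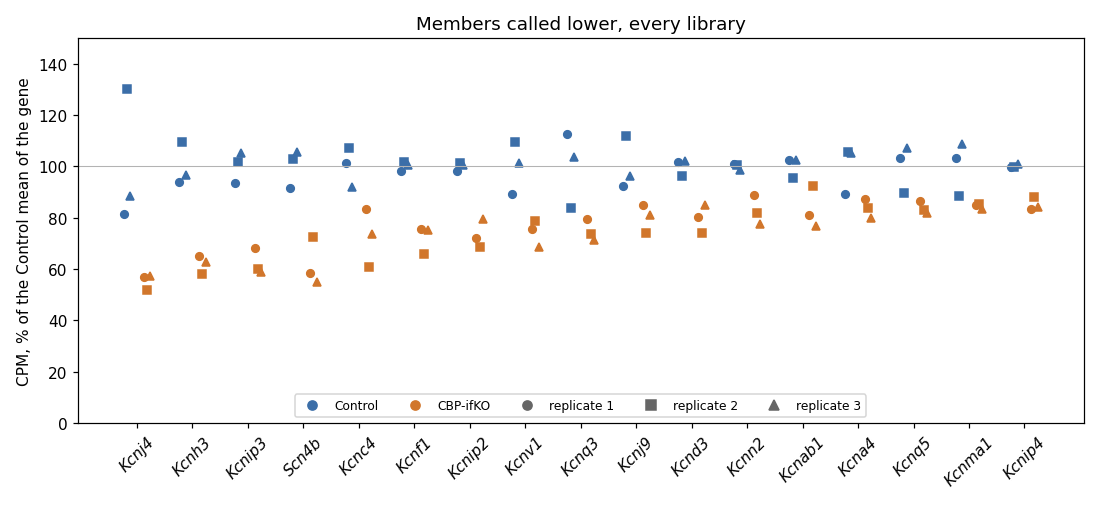
CPM of each library as a percentage of the Control mean of the gene (y axis) for the 17 genes called lower, in order of fold change, with Control in blue, CBP-ifKO in orange and a symbol for each replicate. Every orange point of a gene lies below its blue points, and Control replicate 2 lies above the other Control libraries for Kcnj4 and below them for Kcnq3.

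Among Kv1 genes, whose pores open at low thresholds along axons, Kcna4 was called lower. Kcna4, an inactivating pore, was at 102, 121 and 120 CPM in the Control libraries and at 99.7, 95.5 and 91.3 CPM in the CBP-ifKO libraries. The groups stood apart by a narrow margin, with a log2 fold change of -0.26 and an SE of 0.07, the measure that follows ± after each fold change (edgeR adjusted p = 0.042). Its call was lost in 7 of 16 alternative fits, with adjusted p = 0.0928 without Control replicate 2, 0.209 without Control replicate 3, and 0.0595, 0.142 and 0.214 without CBP-ifKO replicates 1, 2 and 3. Kcna1, Kcna2 and Kcna6, which form low-threshold pores of axons and terminals, were at 87.3%, 92.0% and 93.2% of Control with overlapping groups and no call. Of the exon bases of Kcna6, 39.6% are shared with a gene on the other strand, Gm26673, and whether the counting used strand is not stated in the sources used here.

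Kv beta subunits bind the cytoplasmic face of Kv1 pores, and Kcnab1 also brings fast inactivation. Kcnab1 was at 170, 159 and 171 CPM in Control and at 135, 154 and 128 CPM in CBP-ifKO, a log2 fold change of -0.26 ± 0.07 (edgeR adjusted p = 0.0347). CBP-ifKO replicate 2 came close to the lowest Control library. Kcnab1 passed no longer when Control replicate 1 (adjusted p = 0.0877) or 3 (0.152) or CBP-ifKO replicate 1 (0.105) or 3 (0.22) was left out, or with library totals only. Kcnab2, the most abundant member per length at 71.6 CPM per kb of exon in Control, was at 499 ± 38.4 and 437 ± 17.6 CPM (log2 fold change -0.19, adjusted p = 0.0789, not called). Kcnab2 was called lower without Control replicate 1 (-0.25, adjusted p = 0.0334) and with no filter on low counts (-0.19, adjusted p = 0.0475), and with GC and length offsets its log2 fold change was -0.02.

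The Kv2 and Kv3 pores repolarise the soma and support fast firing. Kcnc4, a Kv3 pore with inactivation, was at 28.4, 30.1 and 25.8 CPM in Control and at 23.5, 17.0 and 20.7 CPM in CBP-ifKO. It thus fell to 72.6% of Control, with a log2 fold change of -0.48 ± 0.11 (edgeR adjusted p = 0.0183). Kcnc4 lost it when CBP-ifKO replicate 2 (adjusted p = 0.127) or 3 (0.0713) was left out, and with GC and length offsets (log2 fold change -0.29, adjusted p = 0.107). Kcnc2, a Kv3 pore of fast-spiking cells, was at 158, 138 and 160 CPM in Control and at 131, 136 and 134 CPM in CBP-ifKO, with groups apart but no call (-0.19, adjusted p = 0.101). It was called lower without Control replicate 2 (-0.24, adjusted p = 0.0142). Kcnb2 and Kcnc1, a Kv2 and a Kv3 pore, were at 90.3% and 93.2% of Control and their groups overlapped.

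Electrically silent Kv subunits form no channel alone and change the gating of Kv2 pores they join. Kcnf1 was at 57.8, 59.9 and 59.2 CPM in Control and at 44.7, 38.9 and 44.4 CPM in CBP-ifKO, a wide separation against the spread of either group (log2 fold change -0.47 ± 0.07, edgeR adjusted p = 0.00113). Kcnv1 was at 56.8, 69.7 and 64.4 CPM in Control and at 48.1, 50.1 and 43.5 CPM in CBP-ifKO (-0.43 ± 0.08, adjusted p = 0.00506). Both genes fell to about the same share of Control, 72.3% and 74.3%. Kcnv1 lost the call only without CBP-ifKO replicate 3 (adjusted p = 0.0548). Kcng2 and Kcns2 were lower in all CBP-ifKO libraries than in all Control libraries, at 80.9% and 93.4% of Control, without a call.

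Of the genes of the A-type channel, the pore Kcnd3 and 3 of the 4 KChIPs were called lower, and the pore Kcnd2 was not. Kcnd2, the Kv4 pore with the higher level per length (47.1 CPM per kb in Control), was at 249, 242 and 238 CPM in Control and at 233, 250 and 230 CPM in CBP-ifKO. The groups overlapped, and the log2 fold change was -0.03 with a 95% interval from -0.15 to 0.09. Kcnd3, the other Kv4 pore (13.5 CPM per kb), was at 131, 124 and 132 CPM in Control and at 104, 95.4 and 110 CPM in CBP-ifKO. Kcnd3 was thus 79.8% of Control in CBP-ifKO, with a log2 fold change of -0.33 ± 0.07 (edgeR adjusted p = 0.00619). The difference between the fold changes of Kcnd2 and Kcnd3 was not tested.

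KChIPs are calcium-binding proteins that attach to the Kv4 amino terminus and raise its surface level and recovery from inactivation. Kcnip3, which encodes KChIP3 (also known as DREAM or calsenilin), was at 58.5, 63.6 and 66.0 CPM in Control and at 42.7, 37.7 and 36.9 CPM in CBP-ifKO. It fell to 62.4% of Control (log2 fold change -0.68 ± 0.08, edgeR adjusted p = 9.38e-05), and its change ran from -0.61 to -0.75 over the 16 alternative fits. Kcnip2 was at 124, 128 and 127 CPM in Control and at 90.8, 86.8 and 100.4 CPM in CBP-ifKO (-0.45 ± 0.07, adjusted p = 0.000671). Kcnip4 was at 74.4, 74.6 and 75.3 CPM in Control and at 62.4, 65.9 and 63.0 CPM in CBP-ifKO (-0.23 ± 0.06, adjusted p = 0.0418). Kcnip4 had the smallest change of the called members and lost its call in 11 of 16 alternative fits, among them every fit that left out a library (adjusted p from 0.0558 to 0.182). Kcnip1, a KChIP mainly of interneurons, was at 13.7 ± 1.02 and 13.5 ± 2.05 CPM (95% interval of the log2 difference from -0.30 to 0.25). Dpp6 and Dpp10, whose products are the other Kv4 partners and which are not members, were not called (-0.16 and -0.13, adjusted p = 0.101 and 0.288).

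Summed per length, the 4 KChIP genes were at 74.8 ± 1.55 CPM per kb in Control and at 56.0 ± 1.09 CPM per kb in CBP-ifKO, which was 74.8% of Control, while the Kv4 pores were at 60.5 ± 1.20 and 56.9 ± 1.39 CPM per kb, or 93.9%. Within the KChIP sum, Kcnip3 took 22.6 to 24.5% in Control and 18.3 to 21.4% in CBP-ifKO. Kcnip4 took 27.2 to 28.1% and 30.6 to 33.2%. The make-up of the pool thus differed between all libraries of the groups for these genes, and Kcnip2, the largest part at 45.5 to 46.2% in Control, overlapped (43.1 to 48.0% in CBP-ifKO).

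**Figure D3:**
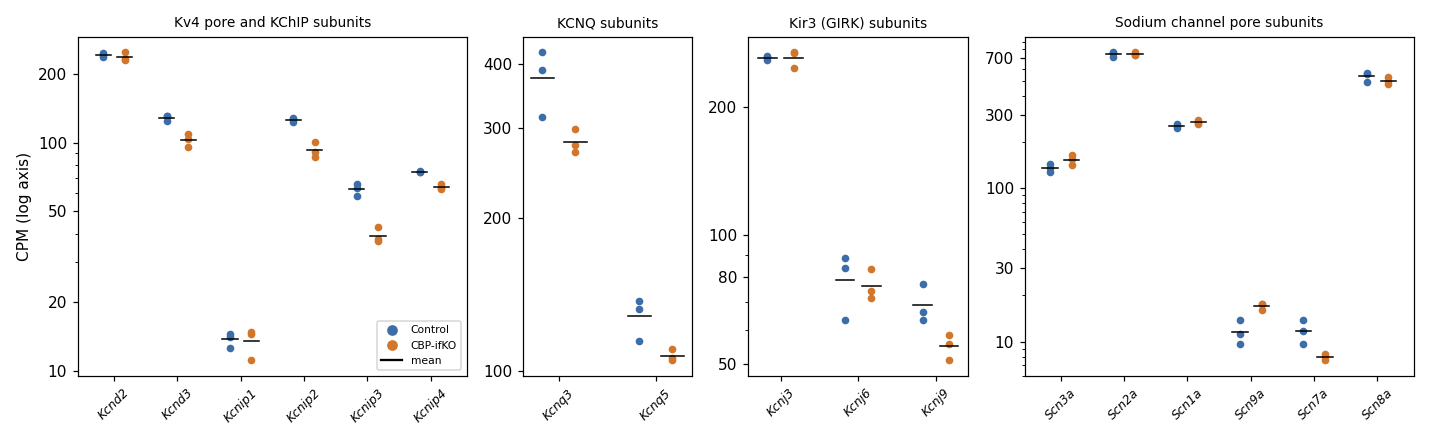
CPM in every library (y axes are log scaled; each dot is a library, bars are means of n = 3) for subunits of 4 channel families in Control (blue) and CBP-ifKO (orange). Kcnd2, Kcnj3 and Scn2a overlap between groups, while Kcnd3, Kcnip2, Kcnip3, Kcnip4, Kcnq3, Kcnq5 and Kcnj9 are lower in all CBP-ifKO libraries.

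CBP was named for its binding to CREB, a factor that recognises the cyclic AMP response element. Promoter windows of RefSeq (GRCm38.p6, from 250 bases before to 50 bases after an annotated start) exist for 38 of the 51 members, and they were searched for the letters TGACGTCA and for the core TGACG, read on both strands (CGTCA on the other), the core being part of the longer motif. The long motif was in 0 of 38 members, against 2.03% of all 27025 genes with a window. The core was in 9 of 38 members (23.7%), against 23.0% of all genes, and in 2 of the 13 called members with a window (15.4%), Kcnj4 and Kcnc4. These are matches of letters in short windows, not binding sites. Given here are the bases before the start for Kcnj4 and for the innermost and outermost starts of Kcnip3, both genes called lower in all fits, in the direction of transcription with the core in capitals. For Kcnc4, whose window lies in annotated exons, only the match with 10 bases on each side is shown.
Kcnj4, chr15:79505242-79505491, minus strand: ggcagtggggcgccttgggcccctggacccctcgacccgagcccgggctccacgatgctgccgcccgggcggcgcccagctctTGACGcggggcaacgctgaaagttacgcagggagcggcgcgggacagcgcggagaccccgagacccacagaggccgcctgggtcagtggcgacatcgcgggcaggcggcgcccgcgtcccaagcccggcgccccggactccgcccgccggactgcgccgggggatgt
Kcnip3 inner start, chr2:127482500-127482749, minus strand: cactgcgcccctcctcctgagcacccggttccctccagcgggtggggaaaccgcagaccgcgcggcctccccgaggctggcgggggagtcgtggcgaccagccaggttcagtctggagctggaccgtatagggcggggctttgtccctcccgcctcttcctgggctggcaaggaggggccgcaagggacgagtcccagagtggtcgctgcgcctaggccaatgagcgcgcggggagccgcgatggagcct
Kcnip3 outer start, chr2:127522095-127522344, minus strand: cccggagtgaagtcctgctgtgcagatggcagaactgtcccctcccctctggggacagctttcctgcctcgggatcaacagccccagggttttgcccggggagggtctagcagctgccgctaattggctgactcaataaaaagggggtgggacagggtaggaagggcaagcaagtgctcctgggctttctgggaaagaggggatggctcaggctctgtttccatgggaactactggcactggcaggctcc
Kcnc4 match, minus strand: ctccccgttcTGACGctgcctcctt
The match of Kcnj4 began 167 bases before its start and that of Kcnc4 began 64 bases before. The Kcnj4 stretch was 77.2% G or C and held 35 CG pairs. The inner Kcnip3 stretch was 71.2% G or C with 23 CG pairs, and the outer one 60.0% with 4. A middle Kcnip3 start, whose bases are not given, was at 58.0% with 2. For Kcnip3, base composition thus differed between the inner start and the other starts. The gene counts do not say which start was used.

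KCNQ pores carry the M-current, and Kcnq3 and Kcnq5 can join in mixed channels. Kcnq3 was at 423, 315 and 390 CPM in Control and at 298, 277 and 269 CPM in CBP-ifKO. Its level in CBP-ifKO was 74.9% of Control, a log2 fold change of -0.42 ± 0.08 (edgeR adjusted p = 0.00608), and this call was lost only without CBP-ifKO replicate 3 (adjusted p = 0.0601). Kcnq5 was at 132, 115 and 137 CPM in Control and at 111, 106 and 105 CPM in CBP-ifKO (-0.26 ± 0.07, adjusted p = 0.0386). Kcnq5 lost the call in 7 alternative fits, with adjusted p = 0.107 and 0.215 without Control replicates 1 and 3, and 0.0643, 0.142 and 0.177 without CBP-ifKO replicates 1, 2 and 3. Both member genes of the family were thus called lower.

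Pores of the EAG, ELK and ERG families open slowly or at subthreshold potentials. Kcnh3, an ELK pore of forebrain neurons, was at 53.6, 62.4 and 55.1 CPM in Control and at 37.0, 33.1 and 35.7 CPM in CBP-ifKO. It fell to 61.9% of Control with a log2 fold change of -0.70 ± 0.08 (edgeR adjusted p = 9.38e-05), and with GC and length offsets the change was -0.45. Kcnh1, an EAG pore, was at 70.0 ± 4.08 and 60.4 ± 3.38 CPM, apart between groups but not called (-0.22, adjusted p = 0.0836). Kcnh5 and Kcnh7, an EAG and an ERG pore, were at 96.9% and 89.4% of Control and their groups overlapped.

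Inward rectifiers of the Kir2 and Kir4 families pass potassium most readily near rest. Kcnj4, a Kir2 pore of forebrain neurons, had the largest size of change among the members, with 36.2, 57.9 and 39.4 CPM in Control and 25.3, 23.1 and 25.4 CPM in CBP-ifKO. It was 55.3% of Control, a log2 fold change of -0.86 ± 0.14 (edgeR adjusted p = 0.00108), and Control replicate 2 stood well above the other Control libraries. Without that library the change was -0.61 (adjusted p = 0.000377), and Kcnip3 (-0.66), Scn4b (-0.65) and Kcnh3 (-0.62) then had larger changes than Kcnj4. Kcnj2, another Kir2 pore, was at 14.6, 26.0 and 19.5 CPM in Control and at 15.4, 15.8 and 14.98 CPM in CBP-ifKO, again with Control replicate 2 highest, and was not called (-0.39, adjusted p = 0.156; -0.14 without that library). Without Control replicate 1 Kcnj2 was called lower (-0.57, adjusted p = 0.0139).

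Kcnj10, the Kir4 pore of astrocytes, had the most positive fold change of the members. It was at 74.4, 43.2 and 74.3 CPM in Control and at 86.5, 70.3 and 71.8 CPM in CBP-ifKO, so that Control replicate 2 was far below all other libraries (0.25 ± 0.14, edgeR adjusted p = 0.336). Without that library the log2 fold change was 0.04 (adjusted p = 0.835). The summed level of the 8 astrocyte markers ranged from 4812 to 5742 CPM in Control and from 5066 to 5207 CPM in CBP-ifKO. Most of this sum was Slc1a2, at 4437, 3568 and 4429 CPM in Control and at 3905, 3946 and 3899 CPM in CBP-ifKO. Single markers differed in which Control library was lowest.

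G protein-gated inward rectifiers open when G protein-coupled receptors release beta-gamma subunits, and they are built around the Kcnj3 subunit in many neurons. Kcnj3 was at 262, 263 and 257 CPM in Control and at 267, 269 and 247 CPM in CBP-ifKO (95% interval of the log2 difference from -0.12 to 0.12). Kcnj9, a partner subunit, was at 63.6, 76.9 and 66.1 CPM in Control and at 58.3, 51.0 and 55.8 CPM in CBP-ifKO (-0.33 ± 0.08, edgeR adjusted p = 0.0232). Kcnj9 was called lower, and the level of Kcnj3, the most abundant of the 3 genes per length, overlapped between groups. The difference between the fold changes of Kcnj3 and Kcnj9 was not tested. Leaving out Control replicate 2 (adjusted p = 0.0707) or 3 (0.0602) or CBP-ifKO replicate 2 (0.145) or 3 (0.0914) ended the call of Kcnj9, as did GC and length offsets (0.0809). Kcnj6, the remaining subunit, was at 78.7 ± 13.4 and 76.3 ± 6.43 CPM.

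K2P channels carry leak current, and of the 3 members 0 were called by edgeR, limma-voom or DESeq2 (2 at an unadjusted edgeR p under 0.05). Kcnk1, the most abundant of them per length (23.4 CPM per kb in Control), averaged 52.3 ± 2.69 CPM in Control against 45.6 ± 0.97 CPM in CBP-ifKO (-0.20, edgeR adjusted p = 0.112). All CBP-ifKO libraries were below all Control libraries for Kcnk1 and for Kcnk9, an acid-sensitive leak pore at 89.2% of Control, and the groups overlapped for Kcnk2, a mechanically gated pore at 90.1%.

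Calcium-activated BK and SK channels follow the calcium entry of a spike. Kcnma1, the BK pore, was at 550, 471 and 579 CPM in Control and at 453, 456 and 444 CPM in CBP-ifKO (-0.24 ± 0.07, edgeR adjusted p = 0.0425). Kcnn2, the main SK pore of hippocampal pyramidal neurons, was at 56.7, 56.6 and 55.4 CPM in Control and at 49.9, 45.9 and 43.6 CPM in CBP-ifKO (-0.28 ± 0.07, adjusted p = 0.0298). Both were called near the threshold and neither call was stable. Kcnma1 lost it in 7 alternative fits, with adjusted p = 0.113 and 0.243 without Control replicates 1 and 3, and 0.0951, 0.124 and 0.189 without CBP-ifKO replicates 1, 2 and 3. Kcnn2 lost it in 8, with adjusted p = 0.0742 and 0.107 without Control replicates 1 and 3, 0.121 and 0.185 without CBP-ifKO replicates 2 and 3, and 0.0629 by DESeq2. Kcnn1 and Kcnn3, the other SK pores, were at 88.2% and 82.8% of Control with overlapping groups, and Kcnn3 was called lower without Control replicate 2 (-0.39, adjusted p = 0.0133). Antisense or other genes on the other strand share 5.98% of the exon bases of Kcnma1 and 4.33% and 3.80% of those of Kcnn2.

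Of the 2 sodium-activated potassium channels, which open as sodium enters the cell, 0 were called by edgeR, limma-voom or DESeq2, and 0 had an unadjusted edgeR p under 0.05. Kcnt2, the more abundant per length, averaged 114 ± 6.17 CPM in Control against 123 ± 15.2 CPM in CBP-ifKO (0.11, edgeR adjusted p = 0.48), and Kcnt1, the other pore of the family, was at 40.2 ± 1.21 and 37.1 ± 2.87 CPM.

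The summed level of the sodium channel pores was close to that of Control. Per length it was 125.8 ± 5.77 CPM per kb in Control and 126.0 ± 1.57 CPM per kb in CBP-ifKO, which was 100.2% of Control with overlapping libraries. Scn2a, the most abundant pore per length (58.2 CPM per kb in Control) and a main channel of excitatory axons, was at 764, 716 and 766 CPM in Control and at 738, 769 and 733 CPM in CBP-ifKO. The groups overlapped, with a log2 difference between -0.12 and 0.11 (95% interval). Scn8a, the channel of mature nodes and initial segments, was at 539 ± 38.8 and 502 ± 24.4 CPM (-0.10, interval from -0.23 to 0.03). Scn1a, a channel prominent in interneurons, was at 261, 246 and 254 CPM in Control and at 262, 277 and 266 CPM in CBP-ifKO, which is a narrow gap without a call (0.08, edgeR adjusted p = 0.431). Scn3a, more typical of the immature brain, was at 135 ± 7.75 and 153 ± 10.6 CPM (0.18, adjusted p = 0.127).

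Scn3a, Scn2a and Scn1a lie in a row on chromosome 2 with Scn9a and Scn7a, which are not members (GRCm38, from chr2:65457118 to chr2:66784914). Scn9a and Scn7a, neighbours in this row, moved in opposite directions at low levels. Scn9a was at 13.8, 9.62 and 11.2 CPM in Control and at 16.0, 17.7 and 17.5 CPM in CBP-ifKO (0.57 ± 0.13, edgeR adjusted p = 0.014). Scn7a, an atypical channel, was at 13.8, 9.71 and 11.7 CPM in Control and at 7.56, 8.35 and 7.90 CPM in CBP-ifKO (-0.56 ± 0.15, adjusted p = 0.0307). The groups did not overlap for either gene, and neither call held throughout. Scn9a lost it without Control replicate 3 (0.065) or CBP-ifKO replicates 2 (0.0703) or 3 (0.0618). Scn7a kept it, among fits that left out a library, only without Control replicate 2 (adjusted p from 0.085 to 0.125 in the others).

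Sodium channel beta subunits are single-pass proteins that set the surface level and gating of the pores. Scn4b, whose product promotes resurgent current, was at 13.3, 14.9 and 15.4 CPM in Control and at 8.53, 10.5 and 7.98 CPM in CBP-ifKO. It fell to 61.9% of Control (log2 fold change -0.68 ± 0.13, edgeR adjusted p = 0.00517) and was the only one of the 10 sodium channel and HCN members with a call. Its level per length was the lowest of the beta members, 2.92 CPM per kb in Control against 58.2 for Scn2b and 47.6 for Scn3b. Scn3b, an abundant beta subunit of hippocampal neurons, was at 260, 260 and 258 CPM in Control and at 223, 241 and 215 CPM in CBP-ifKO, the nearest to the threshold of the members not called (-0.20, adjusted p = 0.0552). It was called lower by limma-voom (adjusted p = 0.0482), with GC and length offsets (0.036) and without CBP-ifKO replicate 2 (0.0461). Scn2b, linked covalently to the pore, was at 271 ± 12.4 and 258 ± 6.75 CPM (interval from -0.19 to 0.05).

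Of the HCN members 0 were called by edgeR, limma-voom or DESeq2 (1 at an unadjusted edgeR p under 0.05). Hcn2, the most abundant of them per length (16.0 CPM per kb in Control), was at 47.3, 54.8 and 51.0 CPM in Control and at 48.1, 39.5 and 43.4 CPM in CBP-ifKO (-0.23, edgeR adjusted p = 0.119). The groups overlapped, and with GC and length offsets its sign turned (0.10, adjusted p = 0.522). Hcn3 and Hcn4, HCN pores of low level in this tissue, were at 5.57 ± 0.64 and 1.60 ± 0.17 CPM in Control and at 5.85 ± 0.23 and 1.13 ± 0.62 CPM in CBP-ifKO. At this level a change of Hcn4 was poorly bounded, with an interval from -1.34 to 0.19. Of the exon bases of Hcn3, 17.1% are shared with Pklr on the other strand.

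**Figure D4:**
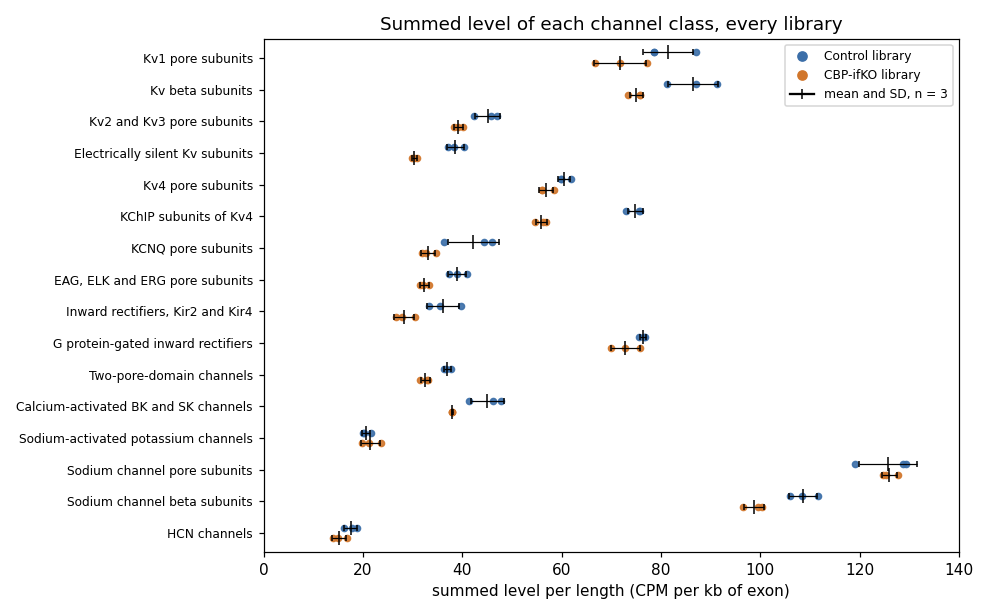
Summed level per length of each channel class (x axis, CPM per kb of exon) in every library, with the mean and SD of n = 3. With TMM scaling, the libraries of the groups are apart for 12 of 16 classes. They overlap for the G protein-gated rectifiers, the sodium-activated potassium channels, the sodium channel pores and the HCN channels.

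Summed over the genes of a class, CBP-ifKO libraries were all below Control libraries in 12 of 16 classes and never all above. For single genes tested the shares were 13.9% below and 11.8% above, and sums of other gene sets were not made. The TMM factors ran from 0.968 to 0.995 in Control and from 1.012 to 1.021 in CBP-ifKO. Library totals alone would thus bring the sums of the groups closer, and the count of classes under that scaling was not tested. The lowest sums relative to Control were those of the KChIPs (74.8%), the Kir2 and Kir4 rectifiers (78.3%), the KCNQ pores (78.4%), the silent Kv subunits (78.6%) and the EAG, ELK and ERG pores (82.9%). The highest were those of the sodium-activated potassium channels (104%), the sodium channel pores (100.2%) and the G protein-gated rectifiers (95.4%). In these sums the abundant genes weigh most, as with Kcnd2 among the Kv4 pores.

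Called members had a higher median GC content than uncalled ones, with wide overlap. Called members ran from 40.1% (Kcnip4) to 61.2% (Kcnh3), and uncalled ones from 36.6% (Kcnt2) to 65.4% (Hcn2). The median GC content of the longest annotated transcript was 54.2% for the 17 called genes and 48.9% for the other 34, beside 48.3% over all genes tested. With offsets for GC content and length 15 members were called lower, 14 of them among the 17, and Kcnc4, Kcnj9 and Kcnn2 were the ones lost. The part of base composition in these calls was not tested further. Exons on the other strand share 4.01% of the exon bases of Kcnj9, 4.63% and 2.73% of those of Kcnip4, 2.34% of those of Kcnab1 and 1.72% of those of Kcnd3. By position, 4 of the 7 members on chromosome 15 were called lower (Kcnv1, Kcnq3, Kcnh3 and Kcnj4). Beside this stand 33.3% of all 51 members and 9.08% of the 672 genes tested on that chromosome. The 4 genes lie far apart (starts at 45106284, 65986387, 99224861 and 79483714). This arrangement was noticed after the values were seen.

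Channel genes outside the member list also had mostly negative fold changes. A list of 73 further pore and accessory genes was drawn up from the same families, of which 48 were tested, and 7 of these were called lower and 1, Scn9a, higher, while 38 of the 48 fold changes were negative (median -0.15 on the log2 scale). Over all genes tested 4.99% were called lower, 1.4% were called higher and 50.7% were negative. Kcng1, a silent Kv subunit, was at 15.4 ± 0.56 and 10.1 ± 1.32 CPM (-0.61 ± 0.12, edgeR adjusted p = 0.0066), and it lost the call without CBP-ifKO replicate 2 (adjusted p = 0.0565). Pex5l, which encodes the HCN trafficking partner TRIP8b, was at 377 ± 10.2 and 311 ± 10.2 CPM (-0.27 ± 0.06, adjusted p = 0.00608), and it lost the call without CBP-ifKO replicate 3 (0.0775). Kcnh4 and Kcnk4, an ELK and a K2P pore, were called lower at 2.08 ± 0.33 and 5.73 ± 0.39 CPM in Control (log2 fold changes -1.41 and -0.78). Kcnk4 shares 13.1% of its exon bases with Catsperz on the same strand. Both genes lost the call in 4 of the 6 fits that left out a library, with adjusted p up to 0.139 for Kcnh4 and 0.115 for Kcnk4.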

How the data were processed

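Single-end reads of 50 bases from hippocampal total RNA were processed by the authors, who per the labels and methods trimmed adapters with Trim Galore 0.6.4, aligned with STAR 2.6.1 to mm10 (GRCm38), kept reads above a mapping quality limit, and deposited raw counts over the exons of Ensembl genes (Rsubread), with no normalization. The use of strand is not given in the sources used here, so overlapping genes on opposite strands cannot be separated. The deposited exon length of each gene gave the values per kb. Gene symbols, positions and the GC content of each gene's longest transcript came from GENCODE M21, which matched 55230 (99.6%) of 55471 identifiers.

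Groups were taken from the sample titles. Counts were tested with edgeR 4.0.16 (R 4.3.3): TMM scaling, filterByExpr (minimum count 10, minimum total 15), the quasi-likelihood F-test, and Benjamini-Hochberg adjustment over all 17981 genes tested, with calls at an adjusted p under 0.05. SE was taken as the absolute log2 fold change over the root of F. The procedure was tested on simulated data. Replicates differed by more than counting noise (chi-square per degree of freedom from 2.47 to 6.10), and the common biological coefficient of variation was 6.81%. The p-values measure the spread between libraries, which may be pools of animals, and intervals rest on n = 3 per group.

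Named genes were the genotype checks, every member called, the 5 uncalled members with the smallest adjusted p, the member highest per length in a class with no call, and other channel genes called, some of which are not reported here; the remaining members are given by values without a claim of change. The members and lists were chosen with earlier results of these data known. The 17 alternatives were RLE, upper-quartile or no scaling factors, no or a stricter count filter, limma-voom 3.58.1, DESeq2 1.42.0, GC and length offsets, a replicate block, both together, each library left out, and a threshold of 0.01. The first 16 are fits, and the last is a threshold. Protein sequences were not used here.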

Additional observations from a re-analysis of the deposited data

How the results depend on the processing

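All 17 members called lower kept a negative fold change in all 16 alternative fits, and 7 of them kept the call in each. The number of genes called moved from 1149 to 1794 with offsets for GC content and length plus a replicate block, and to 476 at an adjusted p under 0.01, and it ranged from 498 to 1326 when each library was left out. The number of members called lower moved from 17 to 11 with library totals only and to 9 at an adjusted p under 0.01, and ranged from 7 to 17 with a library left out. Members called higher were 1 with no filter on low counts (Kcnj10, adjusted p = 0.0211) and 2 with the replicate block and offsets (Kcnj10, adjusted p = 0.0392, and Scn3a, 0.0491), and 0 in every fit that left out a library. The median log2 fold change of the members moved from -0.20 to -0.15 with library totals only, and ranged from -0.21 to -0.18 with a library left out. The replicate block alone gave 1210 genes and 16 members lower, Kcnip4 being lost (adjusted p = 0.055). Libraries with the same number correlated at 0.077, 0.037 and 0.0022 in their deviations from the group means, so the numbers were not taken to pair samples. For Scn2a, close to 0 throughout, the log2 fold change was positive with RLE factors (0.0031), upper-quartile factors (0.0093), library totals only (0.042), no filter (0.0051) and DESeq2 (0.0063), and ranged from -0.026 to 0.020 with a library left out. Hcn2 was at 0.0993 with GC and length offsets and at 0.0994 with the block added. The cause of these moves was not tested. Depth limits the low-level genes most, such as Hcn4, Hcn3 and Kcnh4.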
